A study of Homo sapiens with 6 samples.

Results

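ATP-dependent chromatin remodelers of the SWI/SNF, CHD, INO80 and ISWI families, with ATRX and HELLS, were examined in ovarian carcinoma cells depleted of the histone acetyltransferase HBO1. Of a list of 36 remodeler genes, 33 had at least 1 probe annotated to their current or older symbol on the array, among 20044 named genes in all. BAZ1B, PBRM1 and SMARCD2 had no probe under their symbols in the annotation used and were not analysed here. The 33 genes had 59 probes, of which 50 were bright enough to be tested (detection p under 0.05 on at least 3 of 6 arrays), and every one of the 33 genes kept at least 1 tested probe. The other 9 probes were at background, with 1 detection in all, on a siHBO1 array.

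All 6 samples were of the line UWB1.289, a human ovarian carcinoma line that lacks functional BRCA1. In 3 samples the cells had received a small interfering RNA (siRNA) against HBO1 (siHBO1), and in 3 a scrambled siRNA (siCTRL), and total RNA was taken 48 hours later in every case. Whether the 3 samples of a group were grown and transfected apart is not stated in the labels, so every p-value reflects sample-to-sample spread that could be purely technical. The sequence of the siRNA is not given in the sources used here. The series compares siHBO1 with siCTRL, and values below are siHBO1 minus siCTRL.

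Remodelers use the energy of ATP to slide, eject or exchange nucleosomes. SWI/SNF complexes open chromatin at enhancers and promoters, CHD proteins read methylated histone tails or act in the NuRD corepressor complex, and INO80-type complexes, including those of SRCAP and EP400, exchange histone variants. Several of their subunits carry bromodomains, which bind acetylated lysines of the kind that histone acetyltransferases such as HBO1 produce, and genes of SWI/SNF subunits are often mutated in ovarian cancers.

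The siRNA target was lower in siHBO1 cells. KAT7, the gene of HBO1, read 5.59, 6.29 and 5.98 on the siHBO1 arrays, against 7.98, 7.93 and 7.56 on the siCTRL arrays, in normalised log2 intensity. The groups did not overlap, and 27.3% of the control signal remained (log2 fold change -1.87, SE 0.20, limma adjusted p = 0.0187, two-sided exact permutation p = 0.1, the smallest that 3 against 3 arrays can give). The adjusted p was above 0.05 without siHBO1 replicate 1 (0.0595), siHBO1 replicate 2 (0.0605), siCTRL replicate 2 (0.0967) or siCTRL replicate 3 (0.0855), and the log2 fold change shrank to -0.74 where background was left uncorrected. It was -1.44 with the authors' values and -1.44 with a background offset of 50. The KAT7 probe was detected on 2 of 3 siHBO1 and 3 of 3 siCTRL arrays, so its siHBO1 values lie near background. Between 20546 and 21507 of 47316 probes were detected per array. Epithelial markers of the line were measured for 9 of 9 genes, of which 2 rose, CDH1 by 0.76 and MUC16 by 1.33 on the log2 scale. WT1, on the same list, was at -0.53 (SE 0.15, limma adjusted p = 0.113) with the groups apart, and was detected on 1 of 3 siHBO1 and 3 of 3 siCTRL arrays. Of the fibroblast, leukocyte and endothelial markers 2 of 5, 2 of 4 and 2 of 4 genes were detected often enough to be tested, and 0 were called by limma, while CD14 and PECAM1 were higher at an unadjusted p under 0.05. CD68, CDH5, CD14 and PECAM1 were detected on all 6 arrays, with siCTRL means of 10.32, 9.11, 7.33 and 6.32 by their brightest probes. A second CD68 probe was at -0.25 (limma unadjusted p = 0.0356, adjusted p = 0.197). VWF was too rarely detected to be tested, on 2 of 3 siHBO1 and 0 of 3 siCTRL arrays, with the groups apart. COL3A1, PDGFRB, LUM, PTPRC, CD3E and KDR were not detected on any array.

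No remodeler gene passed the test for a change after HBO1 depletion. Taking each gene by its brightest tested probe, 0 of 33 genes were called at a limma adjusted p under 0.05, where 3.19% of all 12227 named genes were, and 0 of 50 probes, where 2.73% of all 21333 tested probes were. Over all tested probes 1.47% were called higher and 1.26% lower. At an unadjusted p under 0.05, 4 of the 33 genes passed, or 12.1%, where 23.8% of all named genes did. They were 2 higher (ARID1A and SMARCE1) and 2 lower (RUVBL1 and SRCAP), where 12.9% of all named genes were higher and 10.9% lower at that limit. By probe, 8 of 50 passed, or 16%, where 21.4% of all tested probes did, and these were 4 higher and 4 lower, where 10.5% of all tested probes were higher and 10.9% lower. The siHBO1 and siCTRL arrays did not overlap for 9 of 33 genes, or 27.3%, where the share was 30.9% of all named genes, and for 15 of 50 probes, or 30%, where it was 27.1% of all tested probes. Across the 33 genes the median log2 fold change was 0.03, with a range from -0.51 to 0.34, and the median over all named genes was 0.01. A value above 0 was found for 20 of 33 genes, where 51.8% of all named genes had one, and for 28 of 50 probes, where 48.8% of all tested probes had one. With median scaling in place of quantile normalisation the split of the 33 genes was 13 above and 20 below 0, and the median over all named genes was -0.03. Leaving out an array gave from 17 genes above 0 (without siHBO1 replicate 1) to 23 (without siCTRL replicate 3). The median size of change, without sign, was 0.11 for the remodelers and 0.16 for all named genes. Of the 582 called probes 314 were higher and 268 lower, against 269 higher and 378 lower with median scaling. The number called rested on every array, and it was 6 without siHBO1 replicate 1, 3 without siHBO1 replicate 2, 268 without siHBO1 replicate 3, 88 without siCTRL replicate 1, 1 without siCTRL replicate 2 and 1 without siCTRL replicate 3.

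The intervals give the size of change that these arrays leave room for. For 26 of the 33 remodeler genes the 95% confidence interval of the log2 fold change, not adjusted for the number of genes, lay wholly within a 1.5-fold change in either direction, where 67.2% of all named genes had such an interval. By probe it was 37 of 50, where it was 64.1% of all tested probes. The 7 genes with wider intervals were ATRX, BAZ2A, CHD3, CHD6, RUVBL1, SMARCD3 and SRCAP. Of these, BAZ2A was detected on 2 of 3 siHBO1 and 1 of 3 siCTRL arrays, and ATRX on 2 of 3 siHBO1 and 3 of 3 siCTRL arrays, so their values lie near background. Among the 26, ARID1B also lies near background, detected on 2 of 3 arrays in each group. Dimmer probes of INO80, BAZ1A and HELLS, also among the 26 by their brightest probe, had intervals that reached beyond 1.5-fold.

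**Figure D1:**
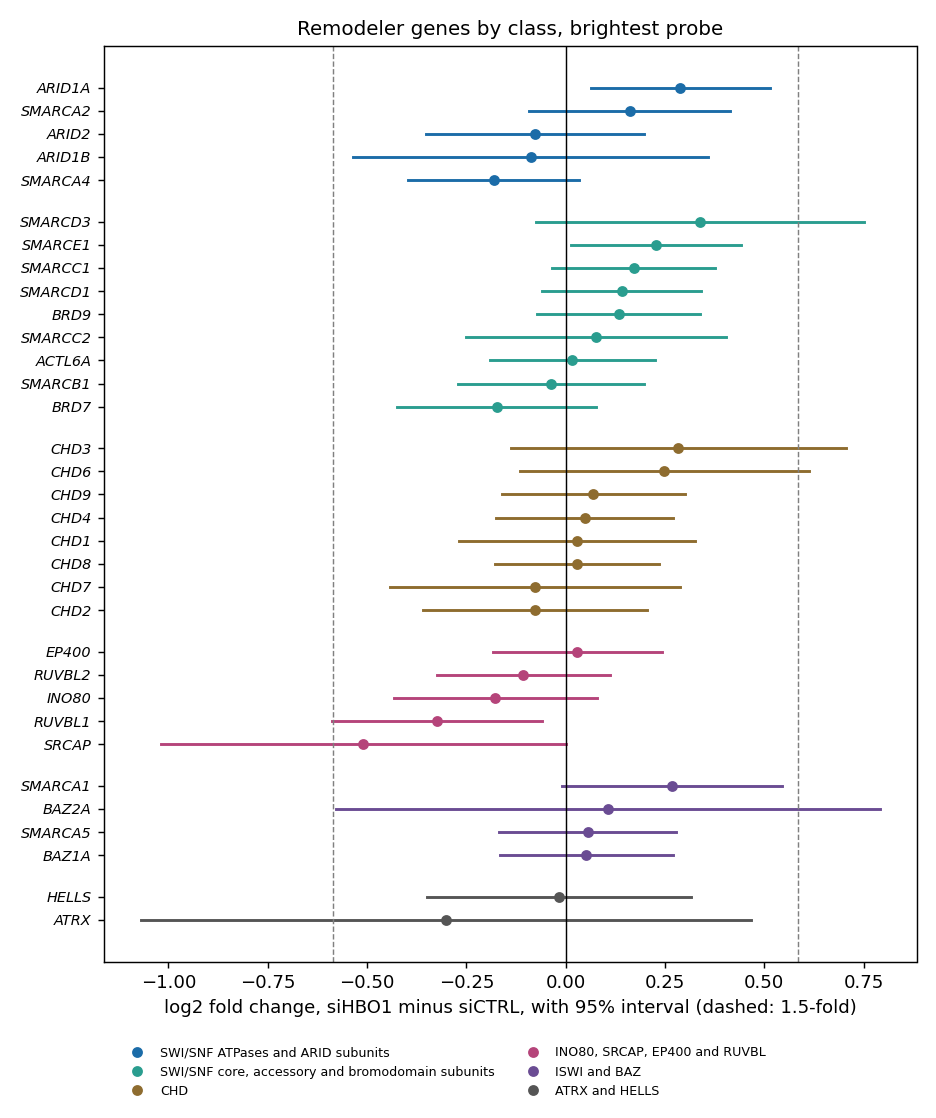
Log2 fold change of each remodeler gene (x axis, siHBO1 minus siCTRL, brightest tested probe, n = 3 arrays each) with its 95% interval as a bar, in rows grouped and coloured by class, and dashed lines at a 1.5-fold change. The values run from -0.51 for SRCAP to 0.34 for SMARCD3, and 26 of 33 bars stay between the dashed lines.

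Among the SWI/SNF ATPases and ARID subunits, the opposite ends were held by ARID1A and SMARCA4. ARID1A, the DNA-binding subunit that defines the canonical BAF form of SWI/SNF and a frequent tumour suppressor gene of ovarian cancers, read 12.56, 12.53 and 12.48 on the siHBO1 arrays, against 12.30, 12.30 and 12.11 on the siCTRL arrays. All siHBO1 arrays were above all siCTRL arrays, by 0.29 on the log2 scale (SE 0.10, 95% interval 0.06 to 0.51), and the limma adjusted p was 0.149. Over 15 alternative settings this probe stayed between 0.22 and 0.32 with adjusted p from 0.0296 to 0.36, and it passed 0.05 in 2 of them, without background correction (0.0437) and with a trended and robust variance prior (0.0296). The second ARID1A probe was not detected on any array.

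SMARCA4 encodes BRG1, the main SWI/SNF ATPase, and SMARCA2 encodes BRM, which takes its place in other copies of the complex. SMARCA4 read 12.90, 12.75 and 12.80 on the siHBO1 arrays, against 13.06, 13.00 and 12.93 on the siCTRL arrays. The siHBO1 arrays were all lower, but the difference of -0.18 (SE 0.09, 95% interval -0.40 to 0.03) did not pass (limma adjusted p = 0.311). SMARCA2 was at 0.16 (SE 0.11) with overlapping groups. ARID1B, the alternative to ARID1A, was at -0.09 (SE 0.19) and was detected on only 2 of 3 arrays in each group. ARID2, the corresponding subunit of the PBAF form, was at -0.08 by its brighter probe and at 0.12 by the other.

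The SWI/SNF core, accessory and bromodomain subunits were mostly on the positive side without a call. Of 9 genes measured, 7 had a log2 fold change above 0, or 6 of 9 with median scaling, and the class median was 0.13. Leaving out an array gave from 5 of 9 above 0 (without siHBO1 replicate 1) to 8 of 9 (without siCTRL replicate 1). SMARCE1, an HMG-box subunit, read 9.78, 9.80 and 9.73 on the siHBO1 arrays, against 9.45, 9.62 and 9.56 on the siCTRL arrays. The groups were apart, by 0.23 (SE 0.09, 95% interval 0.01 to 0.44), with a limma adjusted p of 0.211. SMARCC1, a scaffold subunit also known as BAF155, read 12.14, 12.16 and 12.13 on the siHBO1 arrays, against 11.92, 11.94 and 12.06 on the siCTRL arrays. Its siHBO1 arrays were again all higher, by 0.17 (SE 0.09, adjusted p = 0.314), and those of its paralog SMARCC2 overlapped the siCTRL arrays at 0.08 (SE 0.14).

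SMARCD3, the BAF60 subunit known from heart and muscle development, had the highest log2 fold change among the 33 genes. Its brighter probe read 7.77, 8.02 and 7.39 on the siHBO1 arrays, against 7.58, 7.30 and 7.28 on the siCTRL arrays. These groups overlapped, and the difference was 0.34 (SE 0.18, limma adjusted p = 0.321). It was 0.19 without siHBO1 replicate 2 and 0.17 without background correction, and in both settings ARID1A was higher, at 0.29 and 0.28. A dimmer probe (ILMN_2408987) read 6.65, 7.06 and 6.53 on the siHBO1 arrays, against 6.18, 6.12 and 6.02 on the siCTRL arrays. There the groups were apart, by 0.64 (SE 0.15, 95% interval 0.29 to 0.99, adjusted p = 0.0693), which was the largest value of the 50 member probes. Without background correction the same probe was at 0.21, and its adjusted p lay between 0.0512 and 0.205 over 14 alternatives. The remaining SMARCD3 probe was not detected on any array.

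None of the remaining subunits of this class passed the test. SMARCD1, the BAF60 paralog, was at 0.14 (SE 0.09) and BRD9, the bromodomain subunit of the non-canonical form, at 0.13 (SE 0.09), and in both the groups did not overlap. BRD7, the bromodomain subunit of PBAF, was at -0.17 (SE 0.11) by its brighter probe and at 0.01 (SE 0.09) by the other, and SMARCB1, a core subunit, at -0.04 (SE 0.10) by its brighter probe and at -0.17 (SE 0.10) by the other. ACTL6A, an actin-related protein shared by SWI/SNF, INO80 and EP400 complexes, was at 0.02 (SE 0.09) by the brighter probe and at -0.18 (SE 0.11) by the other.

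**Figure D2:**
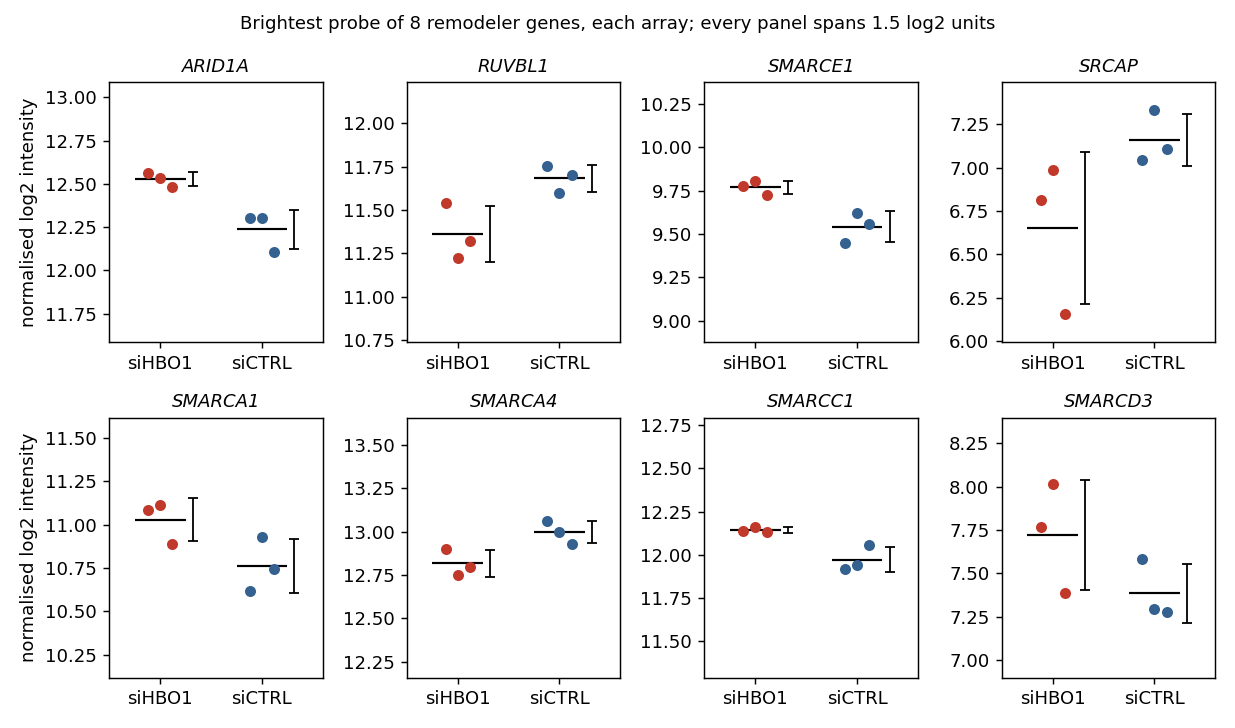
Normalised log2 intensity (y axis) of the brightest probe of the 8 remodeler genes with the smallest p, for each of 3 siHBO1 arrays (red, left) and 3 siCTRL arrays (blue, right), with the mean as a line and the SD as an error bar, and every panel spanning the same height of 1.5 log2 units. The groups overlap for SMARCA1 and SMARCD3 and are apart for ARID1A, RUVBL1, SMARCE1, SRCAP, SMARCA4 and SMARCC1.

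No CHD gene passed the test in either direction. All 8 measured members stayed between -0.08 for CHD2 and 0.28 for CHD3, with a median of 0.04. The split was 6 above and 2 below 0, or 3 above and 5 below with median scaling, and 0 of the 8 brightest probes separated the groups, where 30.9% of those of all named genes did. CHD4, the main ATPase of the NuRD complex, read 12.19, 12.03 and 12.00 on the siHBO1 arrays, against 12.03, 11.97 and 12.07 on the siCTRL arrays. The groups overlapped at a difference of 0.05 (SE 0.09, 95% interval -0.17 to 0.27), and the sign turned with median scaling and without siHBO1 replicate 1. A second CHD4 probe separated the groups at 0.11 (SE 0.09) with a limma adjusted p of 0.551. CHD3, the alternative NuRD ATPase, was at 0.28 (SE 0.18) by its brighter probe and at -0.15 (SE 0.22) by a dim one. CHD1, which binds methylated histone H3 at active genes, was at 0.03 (SE 0.13), CHD7, mutated in CHARGE syndrome, at -0.08 (SE 0.15), CHD8, a regulator of β-catenin, at 0.03 (SE 0.09) and CHD9 at 0.07 (SE 0.10).

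CHD6, like CHD4, had 2 tested probes above 0. Its brighter probe was at 0.25 (SE 0.15), with overlapping groups. The dimmer probe (ILMN_1781816) read 8.56, 8.75 and 8.73 on the siHBO1 arrays, against 8.29, 8.45 and 8.49 on the siCTRL arrays. This probe separated the groups, by 0.27 (SE 0.10), and did not pass (limma adjusted p = 0.19).

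In the INO80, SRCAP, EP400 and RUVBL class 4 of 5 genes had a log2 fold change below 0, or 5 of 5 with median scaling. The class median was -0.18. A RUVBL1 probe had the smallest limma adjusted p of the 50 member probes, at 0.0642 against 0.0693 for SMARCD3 probe ILMN_2408987. That order turned in some settings, as with array weights (0.0575 against 0.0512). It held in others, as with the authors' values (0.0425 against 0.0649). RUVBL1 encodes an AAA+ ATPase, also called pontin, that forms a ring with RUVBL2, or reptin, in the INO80, SRCAP and EP400 complexes. Its brightest probe (ILMN_1693108) read 11.54, 11.22 and 11.32 on the siHBO1 arrays, against 11.75, 11.60 and 11.70 on the siCTRL arrays. The second probe (ILMN_1656540) read 10.95, 10.79 and 10.72 on the siHBO1 arrays, against 11.25, 11.21 and 11.36 on the siCTRL arrays. On each probe all siHBO1 arrays were below all siCTRL arrays.

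The RUVBL1 differences were -0.32 (SE 0.11, 95% interval -0.59 to -0.06, limma adjusted p = 0.162) and -0.45 (SE 0.10, 95% interval -0.69 to -0.22, adjusted p = 0.0642), which leaves 79.9% and 73.0% of the control signal. The 2 probes were read on the same arrays and are not independent. Over 15 alternatives the second probe stayed between -0.52 and -0.40 with adjusted p from 0.00894 to 0.2, and it passed 0.05 in 5 of them, namely with the authors' values, with background uncorrected, with an offset of 50, with a stricter detection filter and with the trended and robust prior. The brightest probe passed in 1, with that prior (0.0481). In these bulk samples less RNA per cell and fewer cells with the transcript cannot be told apart. RUVBL2 read 10.86, 10.78 and 10.68 on the siHBO1 arrays, against 10.95, 10.86 and 10.85 on the siCTRL arrays, and the groups overlapped at -0.11 (SE 0.09, 95% interval -0.32 to 0.11).

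SRCAP, the ATPase that deposits the histone variant H2A.Z, had the lowest log2 fold change of the 33 genes on a dim probe. It read 6.81, 6.99 and 6.15 on the siHBO1 arrays, against 7.04, 7.33 and 7.11 on the siCTRL arrays. The groups were apart, by -0.51 (SE 0.22, 95% interval -1.02 to -0.00024, limma adjusted p = 0.233). The value rested on siHBO1 replicate 3, without which it was -0.26, and it was -0.19 without background correction. In both settings the brightest RUVBL1 probe was lower, at -0.303 in each, so the rank of SRCAP did not hold there. INO80, the ATPase of the complex of that name, was at -0.18 (SE 0.11), -0.13 (SE 0.11) and -0.48 (SE 0.14) on 3 probes. The last of these (ILMN_1799387) was dim, read 6.01, 6.20 and 5.69 on the siHBO1 arrays, against 6.44, 6.45 and 6.44 on the siCTRL arrays, and had a limma adjusted p of 0.108. Its value was -0.14 without background correction and -0.33 with the authors' values. EP400, an ATPase of the TIP60 acetyltransferase complex, was at 0.03 (SE 0.09).

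ARID1A and RUVBL1 were the member genes with a probe at an adjusted p under 0.05 in any alternative setting, so the sequence around their annotated start sites is shown. RefSeq lists 1 start site for ARID1A and 2 for RUVBL1 in GRCh38.p14, and the arrays do not say which is used in these cells. Each window runs from 250 bases before to 50 bases after the start, 5′ to 3′ on the gene's strand, and capitals mark every match to the motifs searched on both strands, which were the CCAAT box (CCAAT), the GC box (GGGCGG), the TATA box (TATAAA) and the E-box (CACGTG). The windows are chr3:128123763-128124062 and chr3:128153865-128154164 on the minus strand for RUVBL1 and chr1:26695765-26696064 on the plus strand for ARID1A.
RUVBL1, start nearer the gene body: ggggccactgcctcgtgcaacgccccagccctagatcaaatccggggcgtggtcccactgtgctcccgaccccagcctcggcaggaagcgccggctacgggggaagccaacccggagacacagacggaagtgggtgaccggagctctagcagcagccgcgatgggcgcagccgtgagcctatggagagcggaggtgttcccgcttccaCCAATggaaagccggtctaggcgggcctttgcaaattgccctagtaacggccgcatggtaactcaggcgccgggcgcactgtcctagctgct
RUVBL1, start farther upstream: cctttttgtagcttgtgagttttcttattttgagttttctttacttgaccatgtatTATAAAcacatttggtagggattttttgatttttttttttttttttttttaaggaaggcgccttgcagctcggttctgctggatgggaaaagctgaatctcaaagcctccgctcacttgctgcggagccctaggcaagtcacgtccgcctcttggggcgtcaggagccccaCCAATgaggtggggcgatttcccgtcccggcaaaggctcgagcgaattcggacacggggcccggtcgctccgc
ARID1A: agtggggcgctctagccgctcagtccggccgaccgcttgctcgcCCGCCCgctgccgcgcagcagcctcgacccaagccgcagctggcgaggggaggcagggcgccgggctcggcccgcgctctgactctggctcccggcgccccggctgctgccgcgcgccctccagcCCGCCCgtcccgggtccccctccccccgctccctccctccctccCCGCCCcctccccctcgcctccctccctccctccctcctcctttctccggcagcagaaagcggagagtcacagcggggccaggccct

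The RUVBL1 window nearer the gene body holds 1 CCAAT match, the one farther upstream a CCAAT and a TATAAA match, and the ARID1A window 3 GC box matches. Start sites were listed for 28 of the 36 remodeler genes, 45 in all. A GC box was found in 68.9% of these 45 windows and in 45% of the 35116 windows of all genes, and a CCAAT box in 31.1% and 34.6%. The TATA box was found in 4.44% of remodeler windows and 11.5% of all, and the E-box in 4.44% and 7.26%. The median GC content was 66% for remodeler windows and 58.7% for all windows, with medians of 25 and 14 CpG dinucleotides. These matches are descriptions of sequence and not of binding sites.

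ISWI remodelers space nucleosomes into regular arrays and work with BAZ-family partners. All 4 measured genes had a log2 fold change above 0, or 2 of 4 with median scaling, with a median of 0.08, and 0 of 4 separated the groups, where 30.9% of all named genes did. SMARCA1, the ISWI ATPase SNF2L, read 11.09, 11.11 and 10.89 on the siHBO1 arrays, against 10.62, 10.93 and 10.74 on the siCTRL arrays. The groups overlapped at 0.27 (SE 0.12, 95% interval -0.01 to 0.54, limma adjusted p = 0.249), and a second SMARCA1 probe was at 0.22 (SE 0.13). SMARCA5, the more widely expressed ISWI ATPase SNF2H, was at 0.06 (SE 0.09) by its brighter probe and at -0.05 (SE 0.09) by the other. BAZ1A, the ACF1 partner of SMARCA5, was at 0.05 (SE 0.09) by its brighter probe and at -0.16 (SE 0.20) by the other, and BAZ2A, which silences ribosomal RNA genes, at 0.11 (SE 0.29).

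ATRX and HELLS act in heterochromatin, ATRX by depositing a histone variant with DAXX and HELLS by promoting DNA methylation. ATRX read 6.54, 6.06 and 5.19 on the siHBO1 arrays, against 5.95, 6.29 and 6.45 on the siCTRL arrays. The siHBO1 arrays spanned the siCTRL arrays, so the difference of -0.30 (SE 0.33) is smaller than its error, and it turned to 0.07 without siHBO1 replicate 3. HELLS read 9.75, 10.13 and 10.10 on the siHBO1 arrays, against 9.84, 10.03 and 10.16 on the siCTRL arrays. Its groups overlapped almost fully at -0.02 (SE 0.14, 95% interval -0.35 to 0.32), and a second probe was at -0.21 (SE 0.19).

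Probes of the same gene were compared, though they were read on the same arrays and are not independent. More than 1 probe was tested for 16 remodeler genes. In 10 of them all probes lay on the same side of 0, and in 6 they did not, namely ACTL6A, ARID2, BAZ1A, BRD7, CHD3 and SMARCA5. In those 6 genes every probe's interval included 0. RUVBL1, INO80, SMARCD3, SMARCA1 and CHD6 were among the 10 with probes on the same side. The share on the same side among all genes with more than 1 tested probe was not computed.

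**Figure D3:**
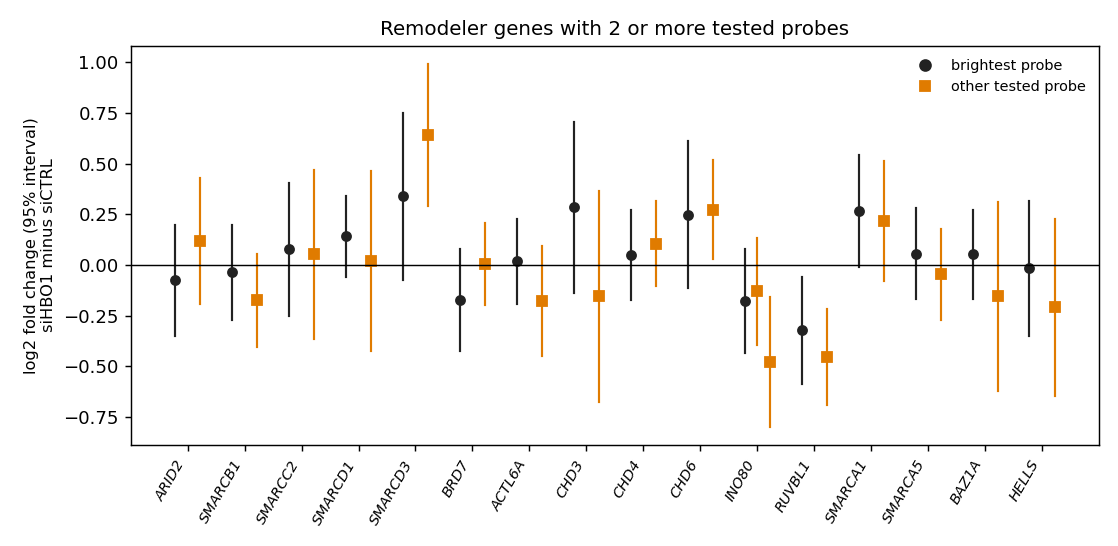
Log2 fold change (y axis, siHBO1 minus siCTRL) of every tested probe of the 16 remodeler genes for which more than 1 probe was tested, with 95% intervals as bars, the brightest probe of a gene as a black circle and its other probes as orange squares. The 2 RUVBL1 probes lie at -0.32 and -0.45 and the 2 SMARCD3 probes at 0.34 and 0.64, while the 2 ARID2 probes lie on either side of 0.

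The balance between subunits that can replace each other, or that mark different forms of a complex, was compared for 8 pairs, as the within-array difference of their brightest probes. For 3 of the 8 pairs the siHBO1 and siCTRL arrays did not overlap, where they did not for 30.9% of all named genes taken singly. The share over other pairs of genes was not computed. SMARCA4 relative to SMARCA2 shifted by -0.34 on the log2 scale (SE 0.12) in siHBO1 cells, BRD9 relative to BRD7 by 0.31 (SE 0.10), and RUVBL1 relative to RUVBL2 by -0.22 (SE 0.08). Each had a two-sided exact permutation p of 0.1, the smallest this design allows, and 0.267 after Benjamini-Hochberg adjustment over the 8 pairs. No pair could have passed the limit used for genes, whatever its shift, so this test cannot tell whether a balance changed. The pairs were also chosen with earlier results of these data known. The BRD9 and BRD7 value used the brighter BRD7 probe, whose log2 fold change of -0.17 was not seen on the other BRD7 probe, at 0.01. The other 5 pairs overlapped, with shifts of 0.38 (SE 0.20) for ARID1A relative to ARID1B, -0.24 (SE 0.23) for CHD4 relative to CHD3, -0.21 (SE 0.17) for SMARCA5 relative to SMARCA1, -0.20 (SE 0.20) for SMARCD1 relative to SMARCD3 and 0.09 (SE 0.17) for SMARCC1 relative to SMARCC2.

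**Figure D4:**
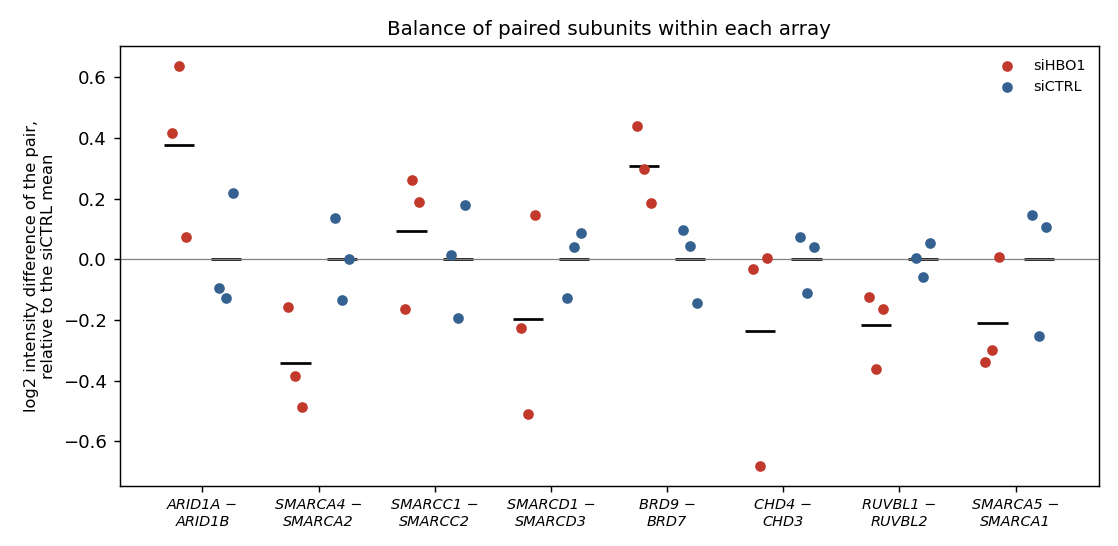
Difference in log2 intensity between the brightest probes of 8 subunit pairs within each array, set to 0 at the siCTRL mean (y axis), for 3 siHBO1 arrays (red, left) and 3 siCTRL arrays (blue, right), with group means as lines. The groups are apart for SMARCA4 − SMARCA2, BRD9 − BRD7 and RUVBL1 − RUVBL2 and overlap for the other 5 pairs.

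Other subunits and relatives of the same complexes gave a similar count. Of 78 such genes, 76 had a probe and 72 were tested, and 1 of the 72 fell and 0 rose at a limma adjusted p under 0.05, where 1.28% of all named genes were called lower and 1.91% higher. At an unadjusted p under 0.05, 6 of the 72, or 8.33%, were lower and 1, or 1.39%, higher, where 10.9% of all named genes were lower and 12.9% higher. The median log2 fold change of the 72 was -0.01. The gene that fell was MTA2, a scaffold subunit of the NuRD complex that holds its histone deacetylases. MTA2 read 10.91, 10.80 and 10.93 on the siHBO1 arrays, against 11.39, 11.35 and 11.30 on the siCTRL arrays. The groups were well apart, by -0.46 (SE 0.09, adjusted p = 0.0456), which leaves 72.6% of the control signal. Leaving out any of the 6 arrays ended this call, with adjusted p from 0.0686 without siHBO1 replicate 3 to 0.158 without siCTRL replicate 2 and log2 fold changes from -0.49 to -0.42. Testing every probe without a detection filter gave a limma adjusted p of 0.0859, and fitting the replicate number as a block gave 0.0706.

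Within NuRD, then, the scaffold MTA2 was called while its ATPases CHD4 and CHD3 were not, and the difference between them was not tested. MTA1 and MTA3, in the same related group, were not called either. They were at -0.08 (SE 0.08, limma adjusted p = 0.646) and 0.05 (SE 0.09, adjusted p = 0.812). The other extremes of the related genes, each taken by its brightest probe, were not called. In the ISWI group BAZ2B, a bromodomain partner of ISWI ATPases, read 11.42, 11.73 and 11.39 on the siHBO1 arrays, against 10.94, 10.88 and 10.996 on the siCTRL arrays. These groups were apart by 0.58 (SE 0.12, limma adjusted p = 0.0531), and over 15 alternatives the adjusted p lay between 0.00311 and 0.176, under 0.05 in 6. CHRAC1, a histone-fold subunit, was lowest in that group at -0.04.

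In the INO80 group the lowest was UCHL5, a deubiquitinase shared with the proteasome, at -0.32 (SE 0.11, limma adjusted p = 0.151), and the highest INO80D at 0.22. In the SWI/SNF group the lowest was PHF10, a PBAF subunit, at -0.31 (SE 0.10, adjusted p = 0.143), and the highest SS18L1, a neuronal BAF subunit, at 0.30. A second SS18L1 probe was at -0.12. Dimmer probes reached further, at -0.44 for BCL11A (detected on 0 of 3 siHBO1 arrays) and at -0.40 and 0.46 for BCL7C. None of these dimmer probes was called. Among SRCAP and EP400 partners MBTD1 was lowest at -0.31 and DMAP1 highest at 0.18. Second probes of MBTD1 and DMAP1 were at -0.07 and 0.25. Dimmer probes of MORF4L1 and KAT5 reached further, at -0.48 and 0.30, and were not called. HDAC2 was the highest in the CHD and NuRD group at 0.11. Among other SNF2-type ATPases and partners ERCC6, which acts in transcription-coupled repair, was lowest at -0.53 (SE 0.20, adjusted p = 0.194) and ZRANB3, a fork-remodelling ATPase, highest at 0.16.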

How the data were processed

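Per the file headers, the deposited table holds the mean bead intensity of each probe on 6 Illumina arrays, with a detection p-value computed by the authors' software. A second deposited table holds the authors' processed values, taken to be log2 intensity from their range, which share a median of 6.31 on all arrays and served as an alternative. The submitters' processing notes name GenomeStudio and lumi without versions or settings, and how background was treated there is unknown.

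Background correction and quantile normalisation of the intensities used limma 3.58.1 and its neqc function (R 4.3.3; 770 negative controls implied by the steps of the detection p-value; offset 16). Probes detected (p under 0.05) on at least 3 of 6 arrays were tested, 21333 of 47316, with lmFit and eBayes, siHBO1 minus siCTRL, and Benjamini-Hochberg adjustment over all of them. Standard errors and intervals are limma's moderated ones, except for pairs of genes, whose errors come from the 6 within-array differences. Arrays have no counterpart of read depth, and their number limits the precision. The platform annotation gave 1 symbol to 30109 probes, 8 carried several and 17199 none. Of the symbols, 30070 were matched through Entrez identifiers to RefSeq's GRCh38.p14 gene table, which gave the current symbol. A gene was taken by its brightest tested probe. The fit was tested on simulated data.

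The member genes, gene lists and subunit pairs were chosen with earlier results of these data known. Arrays are shown for each called member and, since there were none, for the 8 members with the smallest p. The extremes of each class and members whose probes differ in sign are named with their log2 fold change, and arrays are shown for only some of them. ILMN_1799387, ILMN_1781816, the values of further members and CDCA7 fall outside these rules and were named after their values were seen. Alternatives covered the input (the authors' values), background (none, or an offset of 50), scaling (array medians), the detection filter (none, or p under 0.01 on each of 6 arrays), the model (trended and robust variance prior, array weights, replicate block), the threshold (adjusted p under 0.1), the mean of a gene's probes, and leaving out each array.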

Additional observations from a re-analysis of the deposited data

How the results depend on the processing

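The count of 0 remodeler genes became 1 without background correction (ARID1A) and 2 with a trended and robust prior (ARID1A and RUVBL1), and stayed 0 in the other settings, each leave-one-out fit included. The count of 0 member probes became 1 with the authors' processed values, 1 with an offset of 50, 1 with the stricter detection filter, 2 without background correction, 2 at an adjusted p under 0.1 and 3 with the trended and robust prior. The median over member genes was -0.0179 with median scaling, and 0.004 to 0.06 on leaving out an array. The sign of the log2 fold change held in every setting run for 17 of the 33 genes and turned in at least 1 for 16, in 7 of them with median scaling; for CHD4 it was -0.0085 with median scaling and from -0.0114 (without siHBO1 replicate 1) to 0.0840 (without siHBO1 replicate 3) on leaving out an array. The count of 26 genes with intervals inside 1.5-fold, whose alternatives were added after seeing the data, lay between 24 and 33, and between 24 and 29 on leaving out an array. The log2 fold change of KAT7 lay between -2.04 and -1.69 on leaving out an array.

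The count of 1 related gene became 3 with the authors' values, 3 with an offset of 50, 3 with the stricter filter, 3 with array weights, 3 at an adjusted p under 0.1, 4 without background correction, 4 with the trended and robust prior, 2 with median scaling, and 0 without a detection filter, with the replicate block and on leaving out any array. The count of 582 called probes became 979 with the authors' values, 1811 without background correction, 1020 with an offset of 50, 247 without a detection filter, 1136 with the stricter filter, 1886 with the trended and robust prior, 913 with array weights, 1665 at an adjusted p under 0.1, and 1 to 268 on leaving out an array. Fewer arrays were fitted on leaving one out, and more probes were adjusted for without the filter. Whether these or other differences between settings moved the counts was not tested.

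With the replicate number as a replicate block 282 probes, 0 member genes, 0 member probes and 0 related genes were called, and MTA2 had an adjusted p of 0.0706. Deviations from the group means of same-numbered siHBO1 and siCTRL arrays correlated at 0.26, -0.02 and 0.22, and those of differently numbered arrays at -0.28 to 0.09. For 4 of 6 arrays the best match had the same number. Whether same-numbered samples were handled together is not stated in the labels and cannot be settled from these values. The main fit left the number out. Signal over background limits KAT7, ATRX, ARID1B, BAZ2A and the dimmer probes of INO80 and CHD3, which were not detected on every array.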

Other observations

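CDCA7, the zinc finger partner that recruits HELLS to chromatin, was chosen here after its values were seen. It read 11.65, 11.74 and 11.92 on the siHBO1 arrays, against 12.38, 12.20 and 12.27 on the siCTRL arrays. The groups were apart, by -0.51 (SE 0.11), which leaves 70.1% of the control signal, and the limma adjusted p was 0.0576. Over 15 alternatives it stayed between -0.59 and -0.45, with adjusted p from 0.00283 to 0.171, under 0.05 in 7, and a second CDCA7 probe was not detected on any array. Its paralog CDCA7L was at -0.28 (SE 0.10, adjusted p = 0.158) with groups that did not overlap, while HELLS itself was at -0.02.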
